A study of Mus musculus with 24 samples.

Results

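Alkbh5 and Fto are the genes of the enzymes known to remove N6-methyladenosine (m6A) from RNA, and their labelled RNA is described here in mouse embryonic stem cells with and without an edited Alkbh5. Both were found by matching the Ensembl identifiers of the deposited gene table to mouse symbols, which gave 2 of 56941 genes: Alkbh5 (ENSMUSG00000042650) on chromosome 11 and Fto (ENSMUSG00000055932) on chromosome 8. Cells of the E14TG2a line took up 1 mM EU (5-ethynyl uridine), a uridine analog that is built into RNA as it is made, for 10, 20, 40 or 60 min before labelled RNA was captured and sequenced. The 3 genotypes were wild type (WT), an Alkbh5 knockout (KO) and Alkbh5 del-cIDR (dcIDR), in which the C-terminal intrinsically disordered region of the protein is deleted. All groups grew in serum with LIF and the inhibitors PD0325901 (of MEK) and CHIR99021 (of GSK3), and all received the same spike-in of EU-labelled Drosophila RNA. Each of the 12 groups of genotype and time had 2 libraries, 24 in all. How the alleles were made and how many clones were used is not given in the sources used here, so each genotype counts as 1 line. The replicates are at most separate dishes, so the p-values cover the spread between libraries alone, which may be technical.

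m6A is laid down on messenger RNA mainly by a complex around METTL3 and METTL14, is bound by reader proteins such as those of the YTH family, and is removed by ALKBH5 and FTO. Both erasers use iron and 2-oxoglutarate, an intermediate of the citric acid cycle, and belong to the AlkB family of dioxygenases. ALKBH5 acts in the nucleus on m6A, and FTO also removes the related cap mark m6Am. Introns of Fto are known to hold distant enhancers of the neighbouring gene Irx3.

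The 250 bases upstream of each annotated start are shown because the labelled RNA of a gene begins there. They come from RefSeq (GRCm38.p6), in which both genes lie on the plus strand, and capitals mark the CpG dinucleotides.
Alkbh5: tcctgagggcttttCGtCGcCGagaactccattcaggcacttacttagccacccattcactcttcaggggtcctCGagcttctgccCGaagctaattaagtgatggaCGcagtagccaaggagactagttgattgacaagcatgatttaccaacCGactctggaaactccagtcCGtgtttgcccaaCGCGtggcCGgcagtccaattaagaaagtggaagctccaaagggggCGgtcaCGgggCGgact
Fto: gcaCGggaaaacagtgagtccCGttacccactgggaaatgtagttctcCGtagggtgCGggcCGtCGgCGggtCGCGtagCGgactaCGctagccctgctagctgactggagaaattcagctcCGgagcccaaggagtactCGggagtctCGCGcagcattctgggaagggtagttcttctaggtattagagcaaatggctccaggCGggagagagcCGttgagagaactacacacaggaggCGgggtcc
The Alkbh5 stretch held 14 CpG and 54% G or C, and the Fto stretch 18 CpG and 59.2%, against medians of 6 CpG and 52.4% over 32851 RefSeq promoters cut to the same length. Alkbh5 had 2 matches to the GC box (GGGCGG, either strand), which occurs in 32.7% of these promoters, and 1 match to CCAAT (either strand), which occurs in 33.9%. Neither was found in the Fto stretch. TATAAA and the E box CACGTG, present in 12.4% and 6.02% of promoters on either strand, were in neither stretch.

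The libraries held 3129083 to 22159864 reads over genes and 6037 to 23382 spike-in reads. A level is the reads of a gene scaled to 11714 spike-in reads, which is the geometric mean of all libraries. For comparison between genotypes, log2(level + 1) was set against the median tested gene of the same library, which removes a difference that all genes share. Against that scale, the median gene on the deposited spike-in scale was 0.30 higher in KO and 0.15 higher in dcIDR than in WT. Summed over the 10 stem cell markers, among them Pou5f1, Nanog and Sox2, libraries held 3256 to 3845 reads per 1000000 gene reads. Relative to the median gene, KO against WT gave 1 of the 10 called higher and 4 called lower (limma, adjusted p under 0.05), where 14.6% of all tested genes were called higher and 15.5% lower. Zfp42 stood at 0.25, and the 4 lower ones were Utf1 (−0.48), Sox2 (−0.41), Sall4 (−0.40) and Klf4 (−0.39). In dcIDR 1 was called higher, Klf4 (0.18), and 3 lower, Sall4 (−0.34), Zfp42 (−0.34) and Tdgf1 (−0.23), beside 10.4% and 14.7% of all genes. The 5 fibroblast markers summed to 1.74 to 6.74 reads per 1000000 gene reads, and no marker listed for fibroblasts, extraembryonic endoderm, trophoblast or neural cells was at 0 in every library. Extraembryonic endoderm markers summed to 6.36 to 16.6 and trophoblast markers to 33.8 to 64.7 reads per 1000000 gene reads. The 4 neural markers stood at 45.0 to 59.4 reads per 1000000 gene reads in WT, 70.0 to 97.6 in KO and 29.8 to 44.4 in dcIDR. Their members did not move as one: in KO Pax6 (1.57) and Tubb3 (0.84, on chromosome 8 like Fto) were called higher, Pou3f2 lower (−1.49), and Sox1 stood at −0.05, while in dcIDR Tubb3 (−0.88) and Pou3f2 (−0.92) were called lower by limma. The part of these markers in the results was not tested.

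Alkbh5, the edited gene, was transcribed in all 3 genotypes. Averaged over the libraries its level was 1553, above 89.2% of the 22448 tested genes. Per kilobase of gene it had a level of 70.1, and per kilobase of annotated exon 259. Fto had a level of 1270, above 86.4% of genes. Per length it was much lower, at 3.58 per kilobase of gene, above only 21.5% of genes, and 97.5 per kilobase of exon, above 60.4%. Fto spans 354.9 kb with 13.03 kb of annotated exons, and Alkbh5 spans 22.1 kb with 5.99 kb (GENCODE annotation of GRCm38).

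On the scale relative to the median gene, the WT libraries held Alkbh5 at 3.54 and 3.25 (10 min), then 3.39 and 3.31 (20 min), then 3.97 and 3.96 (40 min), with a single value of 4.19 for 60 min. There, the reads of the 2 WT libraries could only be recovered as a sum. In KO the libraries held 3.08 and 2.95, then 2.87 and 2.67, then 3.31 and 3.34, then 3.38 and 3.39 in the same order. The dcIDR libraries held 2.55 and 2.88, then 3.15 and 3.25, then 3.48 and 3.49, then 3.70 and 3.63. At each time both KO and both dcIDR libraries lay below the WT values. This order at all 4 times is shared by 7.53% of tested genes for KO and 5.9% for dcIDR. Between KO and dcIDR the order turned: both dcIDR libraries were lower at 10 min and higher at 20, 40 and 60 min. How many other genes have this turned order was not counted.

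**Figure D1:**
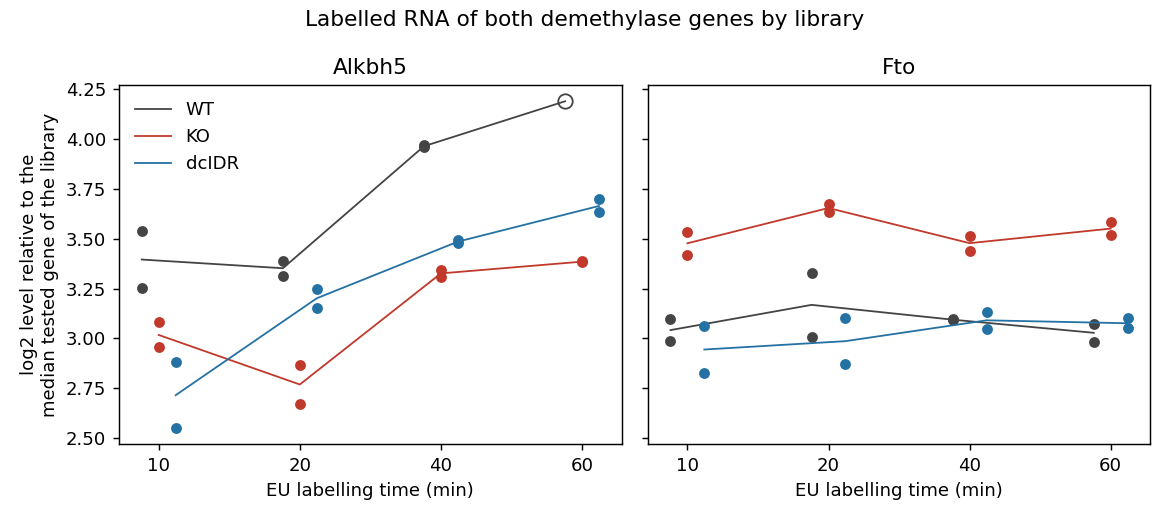
Level of Alkbh5 (left) and Fto (right) in each library as log2 relative to the median tested gene of that library (vertical axis), by EU labelling time in min (horizontal axis); points are libraries, lines join group means and the open circle is the single WT value at 60 min. Alkbh5 of KO and dcIDR lies below WT at each time, and Fto of KO lies above WT and dcIDR at each time.

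Among the 12 groups, Alkbh5 was highest in WT at 60 min (4.19) and at 40 min (3.96), and then in dcIDR at 60 min (3.66 ± 0.05, SD, n = 2) and 40 min (3.49 ± 0.01). WT at 10 min (3.40 ± 0.20), KO at 60 min (3.38 ± 0.0038), WT at 20 min (3.35 ± 0.05) and KO at 40 min (3.33 ± 0.03) followed, and WT at 10 min did not differ from the other three beyond its own spread (SD, n = 2 each). Then came dcIDR at 20 min (3.20 ± 0.07) and KO at 10 min (3.02 ± 0.09). The lowest groups were KO at 20 min (2.77 ± 0.14) and dcIDR at 10 min (2.72 ± 0.23), which did not differ beyond their spread (SD, n = 2 each).

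Averaged over the 4 times, labelled Alkbh5 RNA was lower in KO than in WT by 0.60 on the log2 scale (−0.60 ± 0.06, SE, 1.52-fold lower). It passed limma's test over all genes (adjusted p = 1.22e-05), as did 30.1% of tested genes, 14.6% higher and 15.5% lower. Of all tested genes 6.72% had a lower value. By time, the KO difference was −0.38 ± 0.12 after 10 min (limma, adjusted p = 0.0596), −0.58 ± 0.12 after 20 min (0.00822), −0.64 ± 0.12 after 40 min (0.00556) and −0.80 ± 0.15 after 60 min (0.00499). The shares of all genes called at these times were 11.8%, 10.3%, 8.46% and 8.13%. So, relative to the median gene, the difference passed at 20, 40 and 60 min and not at 10 min. On the deposited spike-in scale the average was −0.29 ± 0.17 and did not pass (limma, adjusted p = 0.206, 24.5% of genes called). There the value at 10 min turned to 0.35 (limma, adjusted p = 0.379), and those at 20, 40 and 60 min, −0.38, −0.67 and −0.47, did not pass either (0.697, 0.786 and 0.686). The shares of all genes called at the 4 times on that scale were 25.2%, 0.508%, 0.441% and 0.499%. In bulk samples fewer cells that make a transcript and less of it per cell cannot be told apart. Reads summed over the whole gene cannot show whether the deleted part is missing, and so they check neither edit.

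In dcIDR, Alkbh5 was lower than in WT by −0.46 ± 0.06 (SE, 1.37-fold lower), which passed (limma, adjusted p = 0.000212). In that comparison 25.1% of tested genes were called, 10.4% higher and 14.7% lower. The difference was −0.68 ± 0.12 after 10 min (limma, adjusted p = 0.00326), −0.15 ± 0.12 after 20 min (0.484), −0.48 ± 0.12 after 40 min (0.0361) and −0.52 ± 0.15 after 60 min (0.0700). At these times 16.2%, 8.97%, 5.32% and 3.77% of genes were called. On this scale it therefore passed at 10 and 40 min alone. As deposited, scaled to spike-in reads, the average was −0.29 ± 0.17 (limma, adjusted p = 0.345, 7.91% of genes called). By time it was then −1.18 at 10 min, which passed (limma, adjusted p = 0.0363, 8.14% of genes called), and it turned to 0.58 at 20 min (0.163, 22.2%). It stood at −0.11 at 40 min (limma, adjusted p = 0.877, 0.61% of genes called) and −0.45 at 60 min (1.00, 0.41%).

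The 2 edited lines were then set against each other. Over all times dcIDR exceeded KO by 0.14 ± 0.06, with an interval (95%) from 0.01 to 0.27, and did not pass after adjustment (limma, adjusted p = 0.0725), while 43.4% of all genes did, 21% higher and 22.4% lower. The values differed in sign by time: −0.30 ± 0.12 at 10 min (adjusted p = 0.0736, 31% of genes called), and 0.43 ± 0.12 at 20 min (0.0217, 20.6%), 0.16 ± 0.12 at 40 min (0.421, 18.4%) and 0.28 ± 0.12 at 60 min (0.137, 17.2%), all by limma. With spike-in scaling the average was 0.0044 ± 0.16 (limma, adjusted p = 0.990, 23.6% of genes called). The values by time kept their signs there, at −1.52 (adjusted p = 0.000811, 73.8% of genes called), 0.96 (0.0646, 11.1%), 0.56 (0.310, 4.73%) and 0.02 (0.989, 3.47%), all by limma. Relative to the median gene and without the 10 min libraries, dcIDR was higher by 0.29 ± 0.05 and passed (limma, adjusted p = 0.000894). Of all 22448 tested genes 5110 were called higher in that setting and 4856 lower. It leaves out the time at which the sign was opposite, so its larger value follows from the values by time and adds no support.

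Fto, the second eraser gene, was higher in KO than in both other genotypes. So were many genes of its chromosome: of 1107 tested, 637 were called higher in KO than in WT and 753 higher in KO than in dcIDR (limma). Over all tested genes these shares were 14.6% and 22.4%. The WT libraries held 862 and 300 Fto reads (10 min), then 1088 and 793 (20 min), then 1271 and 1468 (40 min), then 1261 and 1479 (60 min). KO libraries held 1313 and 574, then 1691 and 663, then 1464 and 1815, then 2186 and 1745 reads. The dcIDR libraries held 299 and 275, then 1201 and 1131, then 1644 and 1578, then 1450 and 1310 reads. These reads are not yet scaled for depth.

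Scaled to spike-in reads, the Fto level in WT ran from 371 ± 85.7 (10 min) through 759 ± 75.0 (20 min) and 1435 ± 446 (40 min) to 1443 ± 355 (60 min; SD, n = 2 each). In KO it was 827 ± 158, 1222 ± 91.1, 1801 ± 276 and 2575 ± 48.4, and in dcIDR 243 ± 34.6, 1164 ± 499, 1833 ± 422 and 1567 ± 351 (SD, n = 2 each). On this scale KO libraries lay above both WT libraries at 3 of the 4 times and overlapped them at 40 min. Total gene reads per spike-in read had the same order: KO above WT at 10, 20 and 60 min, overlapping at 40 min. At 10 min they were 571 to 704 in KO and 334 to 438 in WT. The median tested gene was 0.30 higher in KO on this scale, and the share of genes with that order was not counted.

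Relative to the median gene, Fto stood at 3.04, 3.17, 3.09 and 3.03 in WT from 10 to 60 min, and at 2.94, 2.99, 3.09 and 3.08 in dcIDR. The 4 KO groups stood at 3.48, 3.65, 3.48 and 3.55. Both KO libraries lay above both WT libraries at all 4 times, as in 8.18% of tested genes. They also lay above both dcIDR libraries at all 4 times, an order found in 11% of genes. WT and dcIDR libraries overlapped at each time.

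Fto was higher in KO than in WT by 0.46 ± 0.06 (SE, 1.37-fold), which passed (limma, adjusted p = 3.86e-05) and exceeded the value of 90.4% of tested genes. The difference was nearly the same size at each time, 0.44 after 10 min, 0.49 after 20 min, 0.38 after 40 min and 0.52 after 60 min, each with an SE of 0.12. Adjusted p-values by limma were 0.0270, 0.0164, 0.0579 and 0.0137, so that it missed the threshold at 40 min. Of all genes 30.1% were called in the average, and 11.8%, 10.3%, 8.46% and 8.13% at these times. With spike-in scaling the average was 0.76 ± 0.17 and also passed (limma, adjusted p = 0.00351, 24.5% of genes called). There the difference passed at 10 min (1.16, limma, adjusted p = 0.0266), where 25.2% of all genes were called. Those at 20, 40 and 60 min, 0.69, 0.35 and 0.86, did not pass (limma, adjusted p = 0.459, 0.999 and 0.301).

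Between dcIDR and WT the Fto difference was −0.06 ± 0.06 and did not pass (limma, adjusted p = 0.507). Its interval (95%) ran from −0.18 to 0.07, and its sign changed to 0.11 ± 0.17 on the deposited scale. Between dcIDR and KO it was −0.52 ± 0.06 (limma, adjusted p = 6.26e-06), where 43.4% of all genes were called. It passed at each of the 4 times, with values from −0.67 at 20 min to −0.39 at 40 min. From 10 to 60 min 31%, 20.6%, 18.4% and 17.2% of all genes were called. With spike-in scaling the average of −0.65 ± 0.17 passed too (limma, adjusted p = 0.00841, 23.6% of genes called). By time the difference then passed at 10 min alone (−1.75, limma, adjusted p = 0.000377), where 73.8% of all genes were called. At 20, 40 and 60 min it was then −0.14 (limma, adjusted p = 0.789), 0.01 (0.984) and −0.73 (0.310), so its sign turned at 40 min.

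Whether the KO difference of Fto was its own or that of its surroundings was checked along the chromosome. The genes of chromosome 8 were higher as a group in KO: 637 of 1107 tested genes were called higher and 46 lower, with a median of 0.33. Of all tested genes 14.6% were called higher and 15.5% lower, with a median of −0.01. Fto exceeded 71.8% of the genes of chromosome 8. Set against the median gene of chromosome 8 in each library, Fto was 0.12 ± 0.07 higher in KO than in WT, and the call was lost (limma, adjusted p = 0.193). The dcIDR to KO difference fell from −0.52 to −0.07 ± 0.07 on that scale and was lost too (limma, adjusted p = 0.435), and the dcIDR to WT difference was 0.05 ± 0.07 (adjusted p = 0.60).

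The 10 nearest tested genes on each side of Fto, by order in the reference annotation, were examined next. Of these 20, 8 lie inside Fto, and their reads cannot be told apart from those of its introns. In KO 7 of the 12 outside Fto were called higher and 0 lower by limma, against 14.6% and 15.5% of all tested genes, with values from 0.12 to 1.11 and a median of 0.36. With the 8 inside it, 12 of 20 were called higher, all 20 values lay above 0 and the median was 0.37. Gm45428 next to Fto was higher by 0.86 ± 0.19 (adjusted p = 0.00304), and Gm45293, Gm45294 and Gm3235 inside it by 0.71 ± 0.21 (0.0177), 0.71 ± 0.15 (0.00242) and 0.66 ± 0.16 (0.00600), all by limma. Of the protein-coding neighbours, which were named after their values were seen, Rpgrip1l (a ciliary transition zone protein) was higher by 0.35 ± 0.08 (limma, adjusted p = 0.00253) and Aktip (a telomere and vesicle trafficking protein) by 0.36 ± 0.06 (0.000295). Rbl2, a relative of the retinoblastoma gene, stood at 0.12 ± 0.06 (limma, adjusted p = 0.164). In dcIDR 1 of the 20 neighbours was called higher and 3 lower, with a median of −0.12, beside 10.4% and 14.7% of all genes; all 4 lie outside Fto. The one called higher was Irx3, a homeobox transcription factor gene, at 1.52 ± 0.45 (limma, adjusted p = 0.0231), and its KO value of 1.11 ± 0.45 did not pass (0.0780). Irx3 had a mean level of 15, near the minimum of 10 for testing.

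Around Alkbh5 the neighbours spread from −0.93 to 0.57 in KO and from −1.30 to 0.46 in dcIDR, as the plot of both neighbourhoods shows. In KO 4 of its 20 nearest tested genes were called lower and 0 higher, against 15.5% and 14.6% of all genes, with a median of −0.09. Of the 20, 19 lay above Alkbh5, as most genes do: 6.72% of all tested genes and 4.29% of those of chromosome 11 lay below it. The 4 called lower were Gm12617 at −0.93 ± 0.21 (limma, adjusted p = 0.00436), Myo15 (an unconventional myosin of hair cells) at −0.41 ± 0.14 (0.0411), Natd1 at −0.31 ± 0.06 (0.00197) and Tom1l2 at −0.28 ± 0.07 (0.00965). Gm12617, the annotated gene next after Alkbh5 on the chromosome, had a mean level of only 12.2. In dcIDR Gm12617 was again lower, at −1.30 ± 0.21 (limma, adjusted p = 0.000609), whereas Smcr8 (an autophagy regulator, 0.34 ± 0.05, 0.000511), Natd1 (0.24 ± 0.06, 0.0116) and Top3a (a DNA topoisomerase, 0.20 ± 0.05, 0.0141) were higher. These 3 higher and 1 lower of 20 stand beside 10.4% and 14.7% of all genes, and the median of the 20 was 0.07.

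Over the 1538 tested genes of chromosome 11 the median difference was 0.00 in KO and −0.02 in dcIDR. Set against that chromosome's median gene, Alkbh5 was lower by −0.63 in KO (limma, adjusted p = 2.35e-05) and −0.45 in dcIDR (0.000503), and dcIDR exceeded KO by 0.18 ± 0.06 and passed (adjusted p = 0.0457). On that scale 10 of its 20 neighbours were also called higher in dcIDR than in KO and 0 lower, with a median of 0.22. Of all 22448 tested genes 4143 were then called higher and 4679 lower. Relative to the median gene of all, 9 of the 20 were called higher and 0 lower, beside 21% and 22.4% of all genes. Their median was 0.18, and 11 of them lay above Alkbh5 (0.14).

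**Figure D2:**
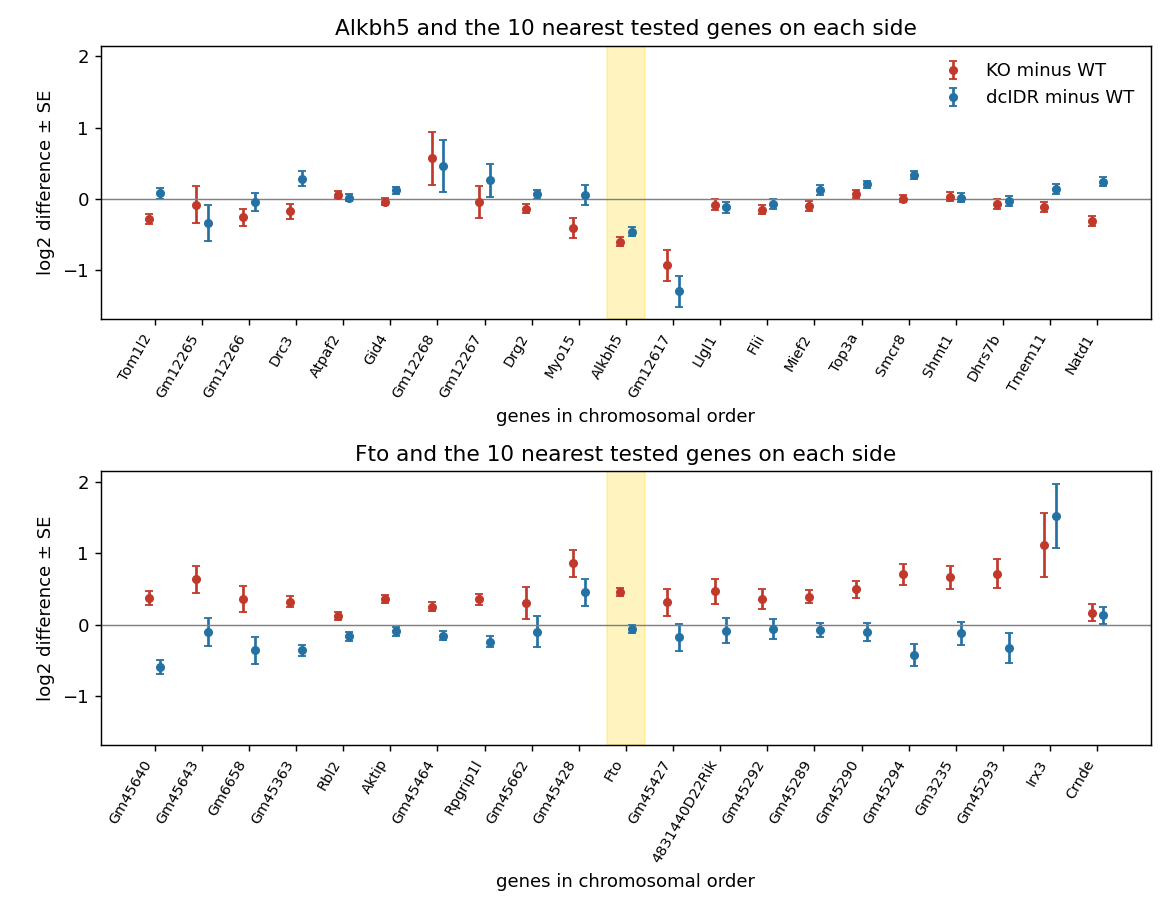
Log2 difference from WT in KO (red) and dcIDR (blue) of Alkbh5 (top) and Fto (bottom), shaded, and of the 10 nearest tested genes on each side in chromosomal order; points are averages over 4 labelling times relative to the median gene, and bars are SE. All 20 neighbours of Fto, 8 of them inside it, lie above 0 in KO, whereas the neighbours of Alkbh5 have a median of −0.09.

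Fto contains other annotated genes, and no tested or untested annotated gene overlaps Alkbh5. All 8 genes inside Fto were tested, and whether the counting used strand is not given in the sources used here, so their reads cannot be told apart from those of Fto introns. In KO 5 of the 8 were called higher (14.6% of all tested genes were) and 0 lower, with all 8 values above 0, from 0.31 to 0.71. In dcIDR 0 of the 8 were called by limma, beside 25.1% of all genes, with values from −0.43 to −0.06. Their slopes with labelling time in WT are given by place along the gene as a description. Gm45427, 4831440D22Rik, Gm45290 and Gm3235 are annotated on the strand opposite to Fto, and the rest on its strand. Of the 8, 1 passed, beside 33.7% of all genes, and a difference along the gene was not tested. The 3 genes in the first 42% of Fto, Gm45427, Gm45292 and 4831440D22Rik, had slopes of −0.28 ± 0.14, −0.23 ± 0.10 and −0.47 ± 0.13 per doubling of labelling time relative to the median gene, and that of 4831440D22Rik passed (limma, adjusted p = 0.0122). Gm45289 and Gm45290 at 51% and 61% of the gene stood at 0.01 ± 0.07 and 0.01 ± 0.09. Gm3235 and Gm45293 at 88% and 90% stood at 0.23 ± 0.11 and 0.14 ± 0.15 and did not pass (limma, adjusted p = 0.133 and 0.50), and Gm45294 at 75% stood at −0.07 ± 0.11.

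The deposited values are log2 ratios to the 10 min group of the same genotype. Alkbh5 stood at 0.84, 2.45 and 2.74 in WT at 20, 40 and 60 min, where the median tested gene stood at 0.93, 2.01 and 2.09. In KO Alkbh5 stood at 0.15, 1.44 and 1.94 against 0.42, 1.20 and 1.67, and in dcIDR at 2.68, 3.53 and 3.49 against 2.26, 2.89 and 2.72. Alkbh5 thus lay below the median gene at 20 min and above it at 40 and 60 min in WT and KO, and above it at all 3 times in dcIDR. Fto followed the median gene: it stood at 1.03, 1.95 and 1.96 in WT, 0.56, 1.12 and 1.64 in KO, and 2.26, 2.91 and 2.69 in dcIDR. Both genes, like the median gene, had their highest ratios in dcIDR. At 10 min the dcIDR libraries held 250.4 to 260.2 gene reads per spike-in read, against 334 to 438 in WT and 571 to 704 in KO, and the part of that total in these ratios was not tested.

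**Figure D3:**
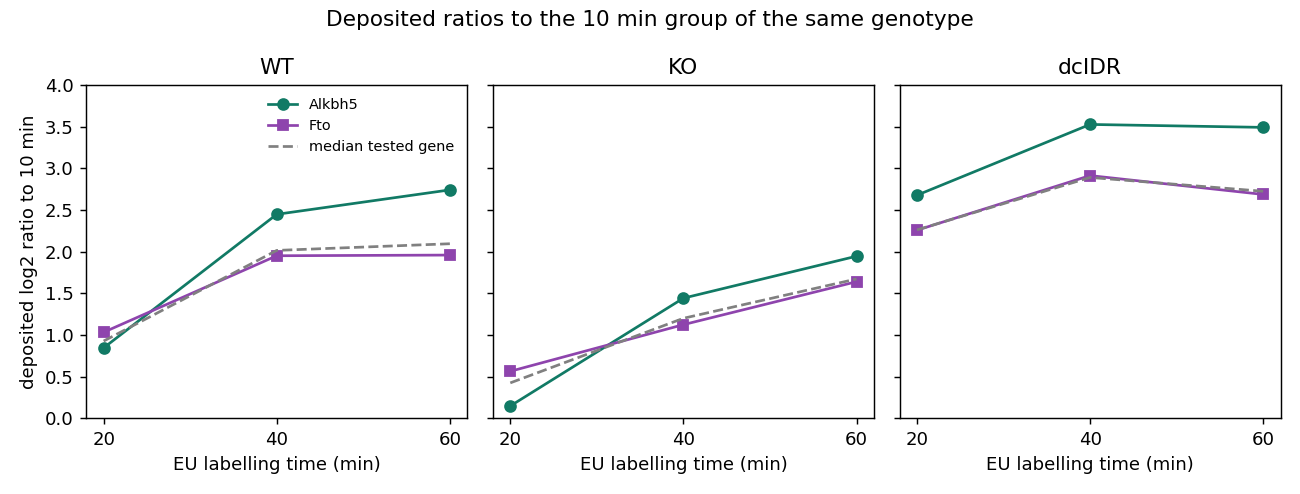
Deposited log2 ratio of each group to the 10 min group of its genotype (vertical axis) by EU labelling time in min, for Alkbh5 (circles), Fto (squares) and the median tested gene (dashed line); each point combines 2 libraries. Fto lies close to the median gene in all panels, and Alkbh5 lies above it at 40 and 60 min.

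The same trend was tested as the slope of the relative level per doubling of labelling time. Alkbh5 gained on the median gene in all genotypes, by 0.34 ± 0.05 in WT (limma, adjusted p = 0.000258), 0.19 ± 0.04 in KO (0.00728) and 0.36 ± 0.04 in dcIDR (2.43e-05). Slopes passed in 33.7%, 24.5% and 42.9% of all genes, and those of Alkbh5 exceeded 91.9%, 81.8% and 90.5% of them. Among the 6820 genes with 0.5 to 2 times the length of Alkbh5 the WT slope still exceeded 90.1%. Fto had slopes of −0.01 ± 0.04, 0.00 ± 0.04 and 0.06 ± 0.04, and none passed by limma (adjusted p = 0.893, 0.951 and 0.275).

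Relative to the median gene, no difference in slope between genotypes passed for either gene. For Alkbh5 the KO slope differed from WT by −0.15 ± 0.07 (limma, adjusted p = 0.457), that of dcIDR from WT by 0.02 ± 0.07 (0.905) and that of dcIDR from KO by 0.17 ± 0.06 (0.101). Slope differences passed in 0.00891%, 0.989% and 7.3% of all genes. A test of the genotype differences at 20, 40 and 60 min against those at 10 min gave F = 3.97 for Alkbh5 (limma, adjusted p = 0.157) and 0.69 for Fto (0.815), and 2.23% of genes passed. On the deposited spike-in scale Alkbh5 passed (F = 5.98, limma, adjusted p = 0.0145), as did 46.8% of genes. Its slope in dcIDR there exceeded that in KO by 0.54 ± 0.17 and also passed (limma, adjusted p = 0.0300, 32% of genes called). Between dcIDR and KO, Alkbh5 at the later times differed from its value at 10 min by 0.59 ± 0.14 (limma, adjusted p = 0.0166, 13.1% of genes called), a contrast added once the values by time were known. With spike-in scaling that change was 2.04 ± 0.38 (limma, adjusted p = 0.000500), and 79.2% of genes were called.

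The ratio of the 2 genes within a library needs no scaling between libraries. It is given as Alkbh5 reads per Fto read, not per length, so only its change between libraries is compared. WT libraries had 1.36 and 1.20 (10 min), then 1.31 and 0.989 (20 min), then 1.84 and 1.82 (40 min), and a mean of 2.24 (60 min). KO libraries had 0.790 and 0.669, then 0.571 and 0.513, then 0.912 and 0.889, then 0.910 and 0.873. In dcIDR the libraries had 0.826 and 0.880, then 1.22 and 1.11, then 1.35 and 1.28, then 1.56 and 1.44. All 8 KO libraries held fewer Alkbh5 than Fto reads, and WT libraries held more except for 1 at 20 min.

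**Figure D4:**
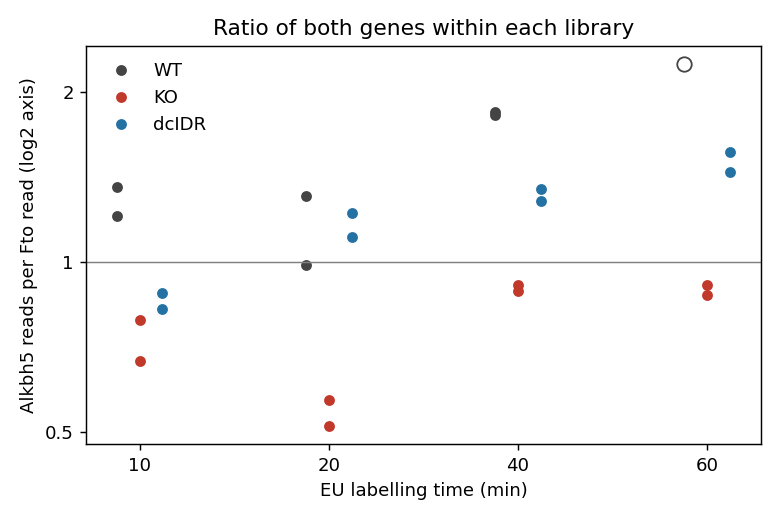
Alkbh5 reads per Fto read in each library (vertical axis, log2 scale) by EU labelling time in min; points are libraries, the grey line marks equal reads, and the open circle is the mean of the WT libraries at 60 min, whose reads were recovered as a sum. KO lies below 1 in all 8 libraries, and dcIDR lies between 0.826 and 1.56.

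The ratio was 2.08-fold lower in KO than in WT (log2 difference −1.06; exact permutation of genotypes within each labelling time, two-sided p = 0.00154, the smallest that the 1296 arrangements allow; adjusted over 3 comparisons 0.00231). It was lower at each time, by −0.81, −1.07, −1.02 and −1.33 from the shortest to the longest labelling. In dcIDR it was 1.32-fold lower than in WT (−0.40; exact permutation p = 0.00617, adjusted 0.00617), with values of −0.58, 0.03, −0.48 and −0.57, so at 20 min no lower ratio was seen. It was 1.58-fold higher in dcIDR than in KO (0.66, exact permutation p = 0.00154, adjusted 0.00231). The WT values at 60 min are 1 divided sum, but the permutation counted them as 2 libraries. Over 3 alternatives, among them 1 without the 60 min libraries, both differences from WT still passed. Their largest adjusted exact permutation p was 0.0139 for KO and 0.0370 for dcIDR. Both arose where a labelling time was left out, which leaves fewer than 1296 arrangements and so a larger smallest possible p. With each gene set against the median gene of its own chromosome, an alternative added once the values were known, KO differed from WT by −0.75 (adjusted exact permutation p = 0.00463) and dcIDR from WT by −0.50 (0.00926). The difference of dcIDR from KO was then 0.25 and no longer passed (adjusted exact permutation p = 0.0664).

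The other genes of the m6A pathway were measured in the same fit. Of 12 writer genes, all tested, 0 were called higher and 1 lower in KO by limma, against 14.6% and 15.5% of all tested genes, with a list median of −0.02 beside −0.01. The 1 was Mettl5, the methyltransferase of 18S ribosomal RNA, at −0.22 ± 0.07 (limma, adjusted p = 0.0241), named after its value was seen. Mettl3, the catalytic subunit, and Mettl14, its partner, stood at 0.08 ± 0.06 and −0.11 ± 0.06 and did not pass. In dcIDR 1 writer gene was called higher, Rbm15 (an adaptor that brings the complex to its RNA) at 0.16 ± 0.04 (limma, adjusted p = 0.0176), and 0 lower, against 10.4% and 14.7% of all genes, with a list median of −0.07 beside −0.02.

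Of 13 reader genes 3 were called higher and 3 lower in KO, near the 14.6% and 15.5% of all genes, and their median was −0.02. Igf2bp3, an RNA-binding protein of fetal tissues, was higher by 0.58 ± 0.05 (limma, adjusted p = 1.8e-06) and Hnrnpa2b1, a nuclear RNA-binding protein, by 0.30 ± 0.07 (0.00925), and both lie on chromosome 6. Elavl1, which encodes the RNA-stabilising protein HuR and lies on chromosome 8 like Fto, was higher by 0.38 ± 0.05 (limma, adjusted p = 7.39e-05). Igf2bp2 was lower by −0.35 ± 0.05 (limma, adjusted p = 8.14e-05), and the other two lower ones, named after their values were seen, were Ythdc2 at −0.28 and Igf2bp1 at −0.16. In dcIDR 1 reader was called higher and 2 lower, beside 10.4% and 14.7% of all genes: Ythdf1 at 0.17 ± 0.04 (limma, adjusted p = 0.00945), Igf2bp3 at −0.27 ± 0.05 (0.00140) and Igf2bp1 at −0.44 ± 0.04 (1.34e-05). The list median was 0.00 beside −0.02.

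Of the 7 other AlkB family genes only Alkbh1 was called, lower in KO by −0.12 ± 0.04 (limma, adjusted p = 0.0428) and in dcIDR by −0.38 ± 0.04 (2.84e-05). The KO call was lost in 17 of the 24 fits that left out 1 library each. Its product is a demethylase of transfer RNA and mitochondrial RNA. This 1 of 7 stands beside 30.1% of all genes called in KO and 25.1% in dcIDR, and list medians were 0.01 in both comparisons.

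Another list held 11 genes of 2-oxoglutarate metabolism, among them genes that make this cosubstrate of both erasers and genes that use it. In KO 1 was called higher and 4 lower, against 14.6% and 15.5% of all genes, with a list median of −0.11 beside −0.01. Got2, the mitochondrial aspartate aminotransferase gene on chromosome 8, was higher by 0.47 ± 0.06 (limma, adjusted p = 5.75e-05). The isocitrate dehydrogenase genes Idh3b and Idh1 were lower by −0.30 ± 0.05 (limma, adjusted p = 0.000634) and −0.21 ± 0.06 (0.0167), and Glud1, the glutamate dehydrogenase gene, by −0.20 ± 0.06 (0.0314). Idh2, named after its value was seen, was lower by −0.18. In dcIDR 1 was higher and 3 lower, against 10.4% and 14.7% of all genes, with a median of −0.09 beside −0.02: Got1 fell by 0.38, Idh1 by 0.23 and Ogdh by 0.18, and Idh2 rose by 0.17. With spike-in scaling 4 m6A genes and 1 of the 2-oxoglutarate genes were called in KO, all higher. Of all 22448 tested genes 4905 were then called higher in KO and 591 lower. In dcIDR 0 genes of these lists were called by limma, beside 7.91% of all genes.

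**Figure D5:**
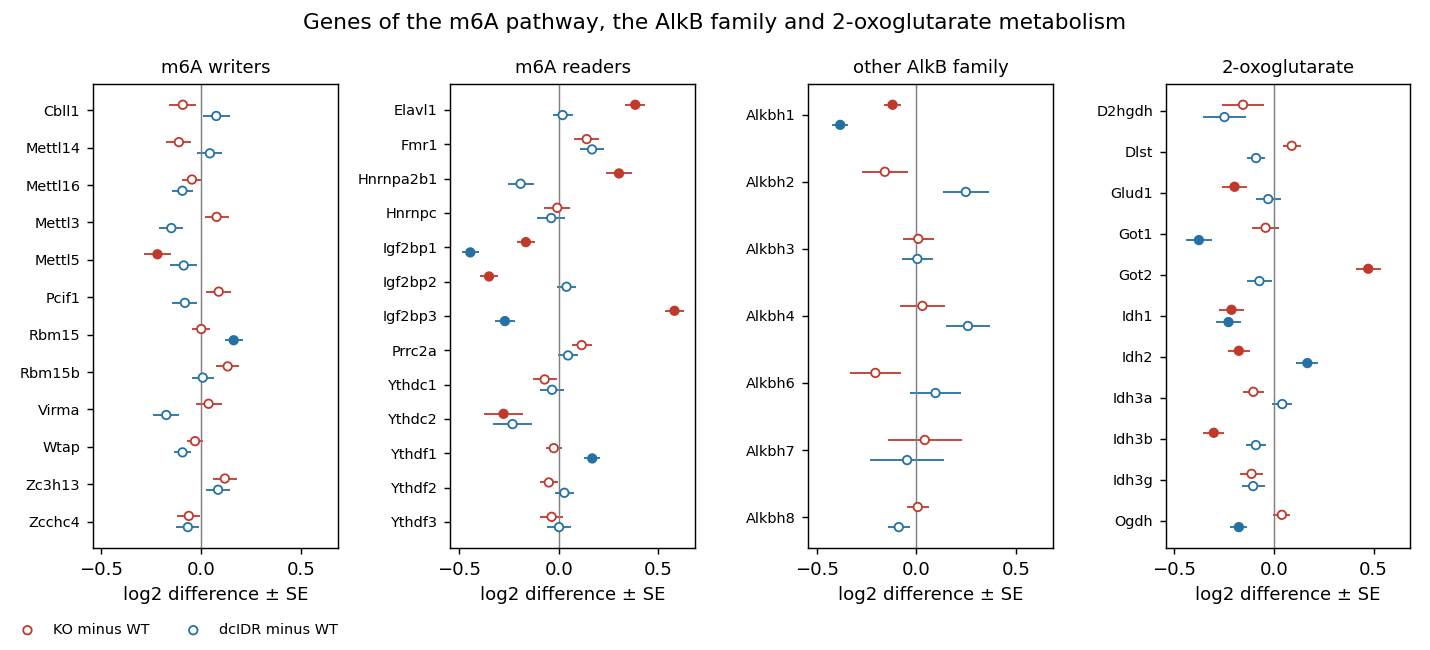
Log2 difference from WT in KO (red) and dcIDR (blue) of the genes of 4 lists, averaged over 4 labelling times and relative to the median gene (horizontal axis); bars are SE and filled points passed limma's test at an adjusted p under 0.05. Writers and AlkB genes have 1 filled point per genotype in each list, and filled reader genes lie on both sides of 0.

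The tested genes whose 12 group means on the relative scale were most like those of each member are given as a description. Among 15215 genes whose mean level reached 50, Emc2 (a subunit of the endoplasmic reticulum membrane protein complex) had the highest Pearson r with Alkbh5, 0.975, followed by Zfp758 (0.963), Zfp473 (0.961), Mtrr (methionine synthase reductase, 0.960) and Zfp995 (0.960). None of them lies on chromosome 11. For Fto they were Ttll3 (a tubulin ligase, 0.991), Rpl7l1 (0.981), Slc7a7 (an amino acid transporter, 0.981), Gm37940 (0.980) and Ggcx (the gamma-glutamyl carboxylase, 0.979). Ttll3, Gm37940 and Ggcx lie on chromosome 6. Alkbh5 and Fto themselves had r = −0.36 over the 12 groups.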

How the data were processed

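RNA labelled with EU was sequenced in 24 libraries, grouped by the labels' genotype and EU treatment time. Per the submitters' processing notes, HISAT2, SAMtools, Picard and the mouse build GRCm39 were used. Versions, annotation, counter and strand setting: not given in the sources used here. Per the file headers and values, the authors deposited log2 ratios of each genotype at 20, 40 or 60 min to its 10 min group, with both replicates combined and scaled to spike-in reads, in 9 columns. The prefix ki was taken as dcIDR, the remaining genotype. Reads that overlapping or antisense genes share are therefore uncertain. The deposited table of repeats was not used here.

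Whole reads of each library were solved from the ratios, which equal sums of reads per spike-in read times 40000 plus 1 (largest relative error 2.89e-15). All 44971 gene lines with a value other than 0 were solved. On simulated data the sum of a group was right in 100% of genes, and splits taken as clear were right in at least 95.1%. Alkbh5 in WT at 60 min had an unclear split, entered the fit as 1 value and for the read ratio was divided in the median proportion of the pair. In each group the library with more spike-in reads is given first; replicate numbers cannot be read from the values. Of counts from 1 to 10, 63.5% were even, so mates may have been counted one by one, and no counting intervals are given. A level is reads scaled to 11714 spike-in reads. Tested genes (22448) had a mean level of 10 or more and reads in 6 or more libraries.

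limma 3.58.1 in R 4.3.3 was fitted to log2(level + 1) with 1 coefficient per group, after subtracting the median tested gene of each library, and p-values were adjusted by Benjamini-Hochberg over all tested genes with a threshold of 0.05. The log2 scale with a pseudocount of 1 understates changes of low genes. The fit was tested on simulated data. Read ratios were compared by exact permutation with numpy 2.4.6. Symbols, chromosomes, gene order and lengths come from annotations of GRCm38, another build than the authors', so no coordinates are given; 51948 of 56941 identifiers matched a symbol. From each list or neighbourhood and comparison, up to 4 called genes with the largest difference were named, and for each member the 5 most similar genes. Values of 1 listed gene are not reported here. Members and lists were chosen with earlier results of these data known. Alternatives were other scales, pseudocounts and filters, other times, a prior spread that follows level, and leaving out each library.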

Additional observations from a re-analysis of the deposited data

Results flagged for a closer look

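The difference of Alkbh5 between dcIDR and KO had opposite signs at 10 min and later, and the tests set up for a change with labelling time did not pass relative to the median gene: F = 3.97 over all genotypes (limma, adjusted p = 0.157) and a slope difference of 0.17 ± 0.06 (0.101). The difference was −0.30 at 10 min and on average 0.29 at 20, 40 and 60 min, relative to the median gene, a change of 0.592 ± 0.14 (SE, limma, adjusted p = 0.0166) in a contrast built on that seen change of sign. The same contrast passed in 13.1% of all tested genes. Fto showed a change of 0.02 ± 0.13 in that contrast (limma, adjusted p = 0.930). On the deposited spike-in scale the change of Alkbh5 was 2.04 ± 0.38 (limma, adjusted p = 0.000500), and 79.2% of all genes passed. Its p-values are therefore no independent support.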

How the results depend on the processing

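Averaged over the labelling times, the KO and dcIDR differences of Alkbh5 from WT and the differences of Fto between KO and each other genotype kept their direction under all alternatives run. Values at single times were computed on the relative and the deposited spike-in scale alone, and calls and signs changed with the scale. With spike-in scaling the sign of Alkbh5 turned in KO at 10 min (0.35) and in dcIDR at 20 min (0.58), each against WT. The sign of Fto turned at 40 min between dcIDR and KO (0.01), and between dcIDR and WT at 20 min (0.55) and 40 min (0.37). The following averages, calls and counts moved with the scale or setting, with some calls lost and others gained. On the deposited spike-in scale Alkbh5 was −0.29 in KO and −0.29 in dcIDR (limma, adjusted p = 0.206 and 0.345), its difference between dcIDR and KO was 0.0044 (0.990), its time-dependent genotype difference (F = 5.98) and its slope difference between dcIDR and KO (0.54) passed, and the dcIDR to WT difference of Fto turned to 0.11. There 4 genes of the m6A pathway, 0 of the AlkB family and 1 of the 2-oxoglutarate genes were called in KO. Of the neighbours of Alkbh5 0 were called in KO, beside 24.5% of all genes. In dcIDR the called genes were 0, 0 and 0 of these lists and 1 neighbour each of Alkbh5 and Fto. In all, 1776 genes (7.91%) were called in dcIDR there and 5301 (23.6%) between dcIDR and KO. With centring on the own chromosome, Fto was 0.12 in KO against WT and −0.069 in dcIDR against KO (both calls lost), 0.054 in dcIDR against WT (sign turned), and Alkbh5 was 0.18 in dcIDR against KO (call gained). With this centring 0 AlkB genes, 1 of the 2-oxoglutarate genes and 1 neighbour of Fto were called in KO. Of all 22448 tested genes 2753 were then called higher in KO and 3001 lower. The Alkbh5 difference between dcIDR and KO also passed with median of ratios scaling (0.15), a mean level of at least 50 (0.16), without the 10 min libraries (0.29) and with a prior spread that follows level (0.14). Without the 10 min libraries 5110 of all 22448 tested genes were called higher in that comparison and 4856 lower. The prior spread that follows level, a setting chosen after seeing the data, gave F = 5.37 for the time-dependent difference (passed) and 9 of 25 m6A genes called in dcIDR. With that setting 2559 of all 22448 tested genes were called higher in dcIDR and 3692 lower. With no filter on low levels 3 genes of the m6A pathway and 0 of the AlkB family were called in KO. So were 1 of the 2-oxoglutarate genes and 1 neighbour of Alkbh5. More genes were tested there, 44971, of which 2907 were called higher in KO and 2313 lower. In dcIDR 1 gene of the m6A pathway, 1 of the 2-oxoglutarate genes and 1 neighbour of Fto were called, and 3345 genes in all. With each gene on its own chromosome's scale, the read ratio differed between dcIDR and KO by 0.25 (exact permutation, call lost). Other causes of these changes were not tested.

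Leaving out each library in turn moved the Alkbh5 difference between dcIDR and KO from 0.10 to 0.18, and it passed without KO library A of 20 min (limma, adjusted p = 0.0480) and without dcIDR library A of 10 min (0.0162), A being the one with more spike-in reads. The AlkB genes called ranged from 0 to 1 in KO (lost in 17 of 24 fits) and from 1 to 2 in dcIDR. The 2-oxoglutarate genes called in KO ranged from 3 to 5, with 3 without WT library A of 20 or 40 min or KO library B of 20 or 60 min, and the neighbours of Fto called in dcIDR from 3 to 8, with 8 without dcIDR library B of 10 min. No paired analysis was possible because the deposited columns combine both replicates and the recovered libraries carry no replicate number. The alternatives for repeat loci inside the genes were not run, since they need gene coordinates of GRCm39. With 2 libraries per group, differences at single times have wide errors.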
